A study of Mus musculus with 26 samples.

Results

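Immortalized mouse embryonic fibroblasts carrying v-src were compared with the same cells carrying the empty vector, on 17 of the 26 expression arrays of the series. Embryonic fibroblasts are connective tissue cells grown from mouse embryos, and immortalized lines of them divide without limit in culture. By the labels, the cells were 3 parental lines named WA, WB and WC, and each received the retroviral vector pBabe-puro, either empty or carrying v-src. There were 3 arrays for each line and vector, except for v-src in WB with 2, replicates 2 and 3, so that 9 arrays of empty vector stood against 8 of v-src. In the comparison itself, the 9 arrays of the same lines with human c-myc entered only the estimate of the spread. They also counted when genes and probe sets were picked by signal, and in the value added before the log. The labels call the insert human v-src and give no passage number, clone, dose or time after infection. They do not say that arrays of the same line and vector came from separate cultures, so the parental line was taken as the replicate (n = 3 lines), and a spread between arrays may be technical.

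As background, v-src is the oncogene of Rous sarcoma virus, a form of the cellular tyrosine kinase Src that has lost the tail tyrosine through which Src is normally switched off. In fibroblasts the constantly active kinase phosphorylates proteins of focal adhesions and the cytoskeleton and feeds the Ras and MAP kinase, PI3 kinase and STAT3 pathways. Transformed fibroblasts are known to round up, to lose stress fibres, to form podosomes that digest matrix, and to take up more glucose. AP-1, a pair of Fos and Jun family proteins, HIF1, the hypoxia-inducible factor, and serum response factor are transcription factors through which such signals reach genes.

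Of 13018 genes tested, 1749 (13.4%) were called at an adjusted p under 0.05 by limma with Benjamini-Hochberg adjustment. The 865 genes called higher with v-src were 6.64% of all tested, and the 884 called lower were 6.79%. The median log2 difference over all genes tested was 0.017. Each called gene had the same sign in all 3 lines, as did 53.1% of all genes tested. The call weighs the mean difference against a spread between line averages. It thus favours genes with the same sign in each line, and this agreement is not separate evidence. On 854 genes (6.56%) the v-src arrays and the empty vector arrays did not overlap, with v-src higher on 3.1% and lower on 3.46% of the genes tested, and 721 of the 854 were called. A change of 2-fold or more was reached by 315 genes called higher (2.42%) and 244 called lower (1.87%), and one of 4-fold or more by 74 and 49. Across genes, which are not independent replicates, the effects in the lines correlated with r = 0.636 for WA and WB, 0.616 for WA and WC, and 0.605 for WB and WC.

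Markers were read in lists, the level being the summed signal of a list on an array. Fibroblast markers summed to between 114800 and 175700 on the empty vector arrays and to between 93670 and 114600 on the v-src arrays, so the v-src arrays lay lower. Of 13 fibroblast markers tested, 0 were called higher and 6 lower, with a median of -0.41. With single arrays left out, 4 to 7 were called lower. Vim (-0.23) was not called with quantile normalization (-0.05, limma adjusted p = 0.515). Col1a1, Col1a2 and Col3a1 are counted again among the collagen chains, and Pdgfrb and Ddr2 among the receptor tyrosine kinases. Of the markers of macrophages and blood, 2 of 10 tested were called higher, Cd53 and Cd14, and of the mast cell markers 1 of 3, Mcpt8. Without those genes the blood list summed to 878.7 to 2038 with empty vector and 1394 to 2047 with v-src, and the mast cell list to 362.6 to 741.5 and 497.0 to 787.1. Ptprc, the common leukocyte antigen CD45, stayed at 71.1 or less on every array of both vectors, and Kit, the stem cell factor receptor of mast cells, at 84.0 or less. Some members were brighter without a call. Csf1r of the blood list had 224 to 661 with empty vector and 344 to 739 with v-src. Cpa3 of the mast cell list had 106 to 244 and 144 to 195. Of the endothelial (4 tested) and epithelial markers (7 tested) 0 were called. The epithelial list, with a median of 0.19, summed to 1307 to 3787 with empty vector and 2260 to 7419 with v-src. Its members Epcam (1.41, and 0.25 on another probe set) and Krt19 (1.13) were higher without a call. Of 7 neural markers, 2 were called lower, Map2 and Ncam1 (-2.20, and -2.06 to 0.01 on other probe sets), of 6 markers of cartilage, bone and fat 1 higher, Fabp4 (2.24, and -0.13 to 2.96 on other probe sets), and 1 lower, Col2a1, and of 5 muscle markers 1 higher, Chrna1 (1.23), which was lost without replicate 1 of WC with c-myc (1.23, adjusted p = 0.0571). In bulk RNA a smaller share of cells and less RNA per cell cannot be told apart. The mouse probe set for Src, which need not read the viral insert, had a lowest, median and highest signal of 1103, 1319 and 1731 with empty vector and 1250, 1704 and 2429 with v-src, and the groups overlapped. Its log2 difference was 0.30 (SE 0.18, limma adjusted p = 0.313, n = 3 lines), with 0.81, 0.03 and 0.07 in WA, WB and WC. Of 12 Src family kinases and regulators tested, 0 were called higher and 1 lower.

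The promoters of several genes with large rises hold a known regulatory element, and the stretches that hold it are shown before the values because those genes head the list of rises. The windows are the 170 bases just before a RefSeq start site on mouse assembly GRCm38.p6, read 5′ to 3′ on the gene's strand. A match is a description of the letters, not a site of binding. In the first 4, capitals mark the AP-1 element TGAGTCA or its reverse complement, which began 35 bases before the start of Mmp13, 46 before that of Mmp3, 63 before that of Mmp10 and 45 before that of Upp1. For a gene with several start sites, here Upp1 with 3, the window shown is one that holds the element.
Mmp13, chr9:7272344-7272513, plus strand: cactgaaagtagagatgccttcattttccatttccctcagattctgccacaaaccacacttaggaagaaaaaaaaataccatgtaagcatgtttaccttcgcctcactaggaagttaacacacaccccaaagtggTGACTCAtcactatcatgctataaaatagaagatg
Mmp3, chr9:7445652-7445821, plus strand: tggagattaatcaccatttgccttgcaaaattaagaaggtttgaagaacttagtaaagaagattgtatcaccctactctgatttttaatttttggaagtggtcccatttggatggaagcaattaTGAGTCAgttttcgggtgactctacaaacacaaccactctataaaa
Mmp10, chr9:7502172-7502341, plus strand: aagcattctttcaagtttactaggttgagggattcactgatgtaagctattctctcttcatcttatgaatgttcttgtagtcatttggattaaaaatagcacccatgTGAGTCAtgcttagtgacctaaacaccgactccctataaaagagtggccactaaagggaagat
Upp1, chr11:9117838-9118007, plus strand: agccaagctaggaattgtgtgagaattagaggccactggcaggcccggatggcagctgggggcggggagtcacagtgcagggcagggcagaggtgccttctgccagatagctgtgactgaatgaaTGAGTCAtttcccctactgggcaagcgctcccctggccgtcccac

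Within 250 bases before a start, TGAGTCA on either strand stood in 5.16% of the 27025 genes with a window and in 4.32% of the tested genes with one. It stood in 6.86% of the genes called higher and in 3.77% of those called lower. Of the 20 genes with the largest rises, 15 had a window, and 6 of the 15 held the element: Il6, Mmp10, Mmp13, Mmp3, Sprr2h and Upp1. Of the 16 windows among the 20 largest falls, 1 held it, that of Prss23. These rises and falls were picked by size in the same data, and a difference in share was not tested. Mmp10, Mmp13 and Mmp3 lie in the same cluster on chromosome 9. Il6, Mmp10, Mmp13, Sprr2h and Upp1 did not pass the stricter filter at the 60th percentile of signal.

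Metalloproteinases and an inhibitor of plasminogen activators held 4 of the 20 largest rises. Mmp13, a collagenase that cuts fibrillar collagen, had a signal of 2.89, 18.7 and 64.0 (lowest, median and highest array) with empty vector and 465.8, 678.0 and 9660 with v-src. All v-src arrays were higher, and the 3 of WC stood above the rest at 8538 or more. Mmp13 rose by 5.13 (SE 0.63, limma adjusted p = 0.00307, n = 3 lines), with 3.76 (WA), 4.52 (WB) and 7.10 (WC). Its empty vector signals lie around the 23 that was added before the log, and the difference ranged from 3.58 to 5.97 over other settings. Mmp3, the matrix protease stromelysin-1, went from 51.8, 130.0 and 172.4 to 445.1, 1157 and 4086, again with no overlap and WC highest. Its relative Mmp10, stromelysin-2, went from 29.4, 53.2 and 184.8 to 420.2, 1769 and 3014, here with the WC arrays lowest. Their differences were 3.17 (SE 0.42) and 3.98 (SE 0.55). In RefSeq order the 3 genes lie in 1 cluster on chromosome 9, in which Mmp8 (0.37) and Mmp7 (-0.53) were not called and Mmp12, Mmp1b, Mmp1a and Mmp20 were below the filter on dim probe sets. That cluster was looked up after its values were seen.

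Of 16 metalloproteinases and inhibitors tested, 3 were called higher and 2 lower (median 0.15), and 1 higher with a stricter filter at the 60th percentile of signal, which tested fewer genes. Timp3, a matrix-bound inhibitor of metalloproteinases and Adamts proteases, had 4428, 7786 and 13320 with empty vector and 884.7, 1658 and 2334 with v-src. Its groups did not overlap, and it fell by 2.33 (SE 0.22, limma adjusted p = 0.00181). The gelatinase gene Mmp2 (-0.22), the membrane protease gene Mmp14 (0.12) and the inhibitor genes Timp1 (0.17) and Timp2 (-0.32) were not called. Among 16 Adam and Adamts proteases, Adamts4, an aggrecanase, rose by 2.61 (SE 0.13) and Adamts7 by 1.91 (SE 0.40), while the aggrecanase gene Adamts5 fell by 1.68 (SE 0.22) and Adamts12 by 1.54 (SE 0.27). For Adamts4 the v-src arrays (1790, 2479 and 3634) all lay above the empty vector arrays (274.5, 317.1 and 1067). Serpinb2, the plasminogen activator inhibitor PAI-2, had 20.3, 62.8 and 1767 with empty vector, where the 3 WB arrays (1221 to 1767) were the high ones. With v-src it had 3261, 8902 and 11800, all above those, and it rose by 5.37 (SE 0.95, limma adjusted p = 0.0110). In the serpin cluster around it on chromosome 1, which was also looked up after its values were seen, Serpinb8 fell by 0.83 (SE 0.21, limma adjusted p = 0.0386) and Serpinb11 (0.11) was not called. Serpinb5, Serpinb12, Serpinb3a and Serpinb7 were below the filter, and the other members had no named probe set.

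**Figure D1:**
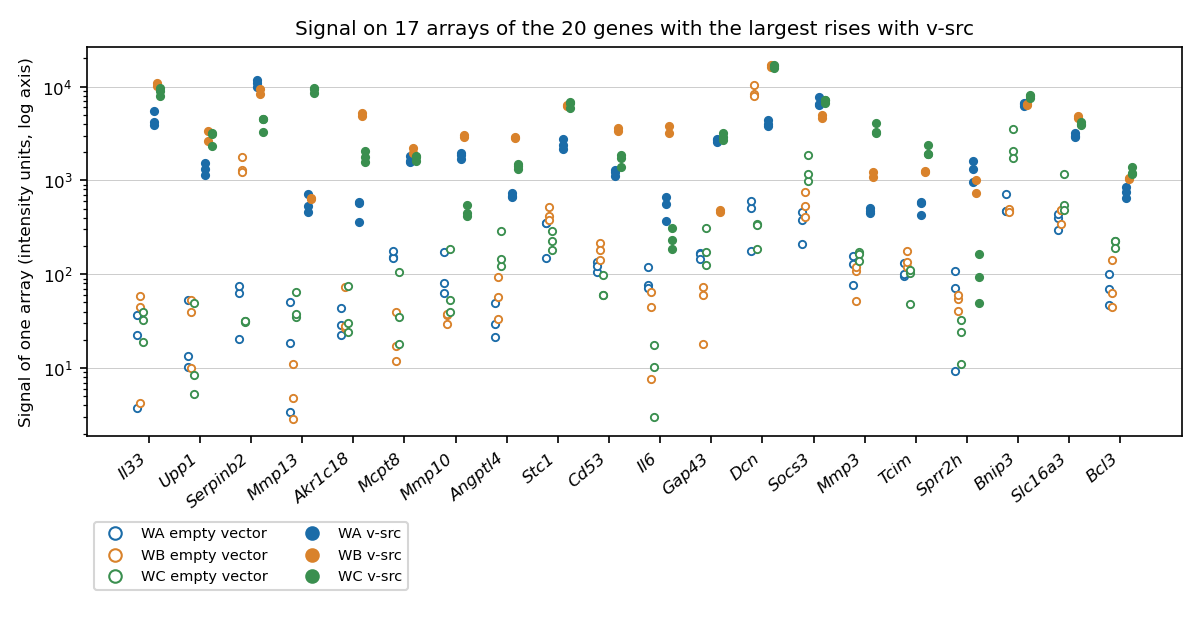
Signal in intensity units on a log axis (vertical) of the 20 genes with the largest rises (horizontal), one point per array, open for empty vector, filled for v-src and coloured by line. In 18 genes every filled point lies above every open one, and the points of Dcn and Sprr2h overlap.

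Il33 had the largest rise of all genes called. It codes for interleukin 33, a nuclear cytokine of the interleukin 1 family that is released from damaged cells. Its signal was 3.74, 32.6 and 58.1 with empty vector and 3869, 8425 and 10790 with v-src, with all v-src arrays high in each line. The rise was 7.26 (SE 0.22, limma adjusted p = 1.41e-05), on the scale of log2(signal + 23), with 6.74, 7.64 and 7.39 in WA, WB and WC. Over other settings the rise ranged from 5.70 to 7.98. Of the 13 tested members of its family, 3 were called higher and 0 lower, Il33 with the receptor chains Il1rap (1.54, SE 0.11) and Il18rap (1.41, SE 0.14, and 2.28 on another probe set). Il1rap is the shared signalling chain of the interleukin 1 and interleukin 33 receptors. Without replicate 1 of WC with empty vector, 5 members were called higher.

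Interleukin 6 and its relatives signal through the gp130 receptor chain to the STAT3 transcription factor. Il6 went from 3.01, 44.2 and 120.2 to 185.0, 466.0 and 3816. All v-src arrays were higher, and the WB arrays (3198 and 3816) were far above those of the other lines. Il6 rose by 3.74 (SE 0.64, limma adjusted p = 0.00948), with 2.28 (WA), 5.96 (WB) and 2.99 (WC). Its empty vector signals were low, and the difference ranged from 2.56 to 3.85 over other settings. With 6 in place of 23 added before the log, Il6 did not pass the filter and was not tested. Socs3, the feedback inhibitor induced by STAT3, went from 208.5, 539.4 and 1877 to 4666, 6657 and 7756 without overlap and rose by 3.26 (SE 0.35). Its kept probe set may cross-hybridize by its name, and the other 2 gave 3.00 and 3.57. Bcl3, a nuclear IkappaB protein, rose by 2.97 (SE 0.34). In all, 7 of 18 members of this list were called higher and 0 lower (median 0.46), also Jak2 (0.89), the oncostatin M receptor gene Osmr (0.80, adjusted p = 0.061 without the intensity trend), Pim1 (0.82, and 0.68 with an adjusted p of 0.0541 as the mean of its probe sets) and Cish (0.51). The Cish call was lost when any 1 of 14 single arrays was left out, with an adjusted p of up to 0.0864. The receptor genes Il6ra (-0.01), Il6st (-0.20) and Lifr (-0.12), Jak1 (-0.02) and Stat3 itself (0.30) were not called. A STAT site was also searched for within 250 bases before the start. It stood in 7.14% of the tested genes with a window, in 6.57% of the genes called higher and in 6.14% of those called lower. In this list 1 of 15 genes with a window held it, Socs3. Among the 20 largest rises it was 2 of 15, Serpinb2 and Socs3, and among the 20 largest falls 1 of 16, Prss23. A difference in share was not tested.

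Of 16 chemokines, 4 were called higher and 0 lower (median 0.50). The neutrophil attractant Cxcl5 rose by 1.74 (SE 0.30) and Ccl8 by 1.60 (SE 0.32), and Cxcl1 by 0.78 (SE 0.17). The remaining call, Cxcl16 (0.55), was lost when any 1 of 13 single arrays was left out, with an adjusted p of up to 0.107. The other 2 probe sets of Cxcl1 gave 1.73 and 0.95, with -0.43 to 1.87 over the lines on the latter. Of 24 genes of NF-kappaB, Toll-like receptors and their adaptors, 5 were called higher and 0 lower, but the median was 0.10. They were Bcl3, Nfkbiz (2.01, SE 0.30, and 0.78 and 1.94 on other probe sets), Cd14, Tnfaip2 (1.61, SE 0.19, and 0.55 and 1.36 on others) and Myd88 (0.80, SE 0.13). Nfkb2 (0.14), Rela (0.05), Nfkbia (0.16) and Tnfaip3 (0.08) were not called. Among the 14 genes of prostaglandin synthesis tested, 3 were called higher and 0 lower (median 0.50), and 5 higher when the fit held empty vector and v-src only. The first of them was Akr1c18, an aldo-keto reductase known as 20-alpha-hydroxysteroid dehydrogenase. It went from 22.6, 28.7 and 75.2 to 357.4, 1669 and 5203, with WB highest and no overlap, and rose by 4.82 (SE 0.51, limma adjusted p = 0.00224). Akr1c14 of the same family fell by 1.42 (SE 0.27). Interferon-stimulated and antigen presentation genes had the highest median of the 50 lists, 1.14, yet 4 of 23 were called higher and 0 lower. The list's median was 0.82, 0.28 and 1.96 in WA, WB and WC. Ifit3 (2.31), Usp18 (2.24) and Rsad2 (1.64) were not called, while H2-D1, a class I histocompatibility gene, rose by 1.27 (SE 0.13) and Nlrc5, an activator of such genes, by 1.50 (SE 0.18). H2-K1 was called at 1.15 but not without replicate 1 of WA with empty vector (1.09, adjusted p = 0.0521) or with v-src (1.09, adjusted p = 0.0557). The number called was 2 without the intensity trend of limma and 8 when the fit held empty vector and v-src only.

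Hypoxia-inducible genes outside glycolysis held the highest count of rises among the lists, 17 of 31 tested, with 0 called lower. The glucose carrier gene Slc2a1, which is called, is counted both here and in the glycolysis list. Their median was 0.90, with 0.77, 1.06 and 0.89 in WA, WB and WC, and on 15 of them all v-src arrays were higher. The labels give no oxygen level. Angptl4, a secreted inhibitor of lipoprotein lipase, had 21.2, 57.4 and 291.1 with empty vector and 665.1, 1368 and 2893 with v-src. Stc1, a secreted glycoprotein hormone, had 149.5, 348.4 and 519.7 and then 2151, 6067 and 6914. Neither gene's groups overlapped. They rose by 3.90 (SE 0.45) and 3.85 (SE 0.27, limma adjusted p = 0.00078). A dimmer probe set read 0.13 for Angptl4, and one read 1.00 for Stc1, with 0.16 in WC. Bnip3, a mitochondrial protein of mitophagy, went from 457.1, 493.4 and 3547 to 6260, 6613 and 8035. Its empty vector arrays of WC (1726 to 3547) stood above those of WA and WB, and the rise was 3.53, 3.70 and 1.73 in WA, WB and WC (mean 2.99, SE 0.34).

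Ndrg1 (1.90, SE 0.14) and Mxi1, a Max partner that opposes Myc (1.51, SE 0.12), rose in each line, by 1.89, 1.91 and 1.91, and by 1.50, 1.51 and 1.52. The other 4 probe sets of Ndrg1 read 2.57 to 3.06, with line values from 2.19 to 3.38. Of the Egln hydroxylases, the oxygen sensors that mark HIF, Egln3 rose by 2.44 (SE 0.36) and Egln1 was called at 0.51. Vhl, the ubiquitin ligase subunit that binds the marked HIF (-0.06), was not called. The Egln1 call was lost without replicate 3 of WA with empty vector (0.44, adjusted p = 0.0548). Hif1a, the oxygen-regulated subunit itself, had 2873, 3496 and 6579 with empty vector and 7025, 7631 and 8782 with v-src, without overlap. It rose by 0.90 (SE 0.19, limma adjusted p = 0.0225). Hmox1, the haem oxygenase, rose by 1.82 (SE 0.15), the adenylate kinase gene Ak4 by 1.69 (SE 0.17) and the growth factor gene Vegfa by 1.11 (SE 0.27, adjusted p 0.0555 without the intensity trend). Other probe sets of Ak4 read 1.64 and 1.48, and dimmer ones -0.11 and -0.12. Car9 (0.96), Ddit4 (0.62) and Adm (-0.38), which are textbook HIF targets too, were not called.

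Glucose uptake, glycolysis and lactate export had 13 of 21 genes called higher and 1 lower (median 0.72). The 1 lower, Pfkfb4 (-0.61), lost its call when any 1 of 4 single arrays was left out, with an adjusted p of up to 0.058. It also lost it without the intensity trend (adjusted p = 0.0592). The lactate exporter gene Slc16a3, which codes for MCT4, went from 298.4, 478.0 and 1165 to 2934, 3985 and 4891. The groups did not overlap, and it rose by 2.97 (SE 0.18, limma adjusted p = 0.000507), 7.84-fold. Slc2a1, the glucose carrier GLUT1, went from 1287, 1665 and 2337 to 6279, 6822 and 7715, also apart, and rose by 2.00 (SE 0.18). Pdk1, a kinase that closes the entry of pyruvate into mitochondria, rose by 2.21 (SE 0.31), Pfkfb3 by 1.30 (SE 0.15, and 0.55 on another probe set), and the hexokinase genes Hk2 by 1.00 (SE 0.13) and Hk1 by 0.72 (SE 0.07). Slc2a3 was called at 2.03 but not without replicate 3 of WB with empty vector (1.96, adjusted p = 0.0505), replicate 1 of WC with empty vector (1.81, adjusted p = 0.0594) or replicate 3 of WB with c-myc (2.03, adjusted p = 0.0582). Among the other enzyme genes, Tpi1 rose by 0.66 (SE 0.12) and Aldoa by 0.58 (SE 0.10), with 0.69 and 1.02 on other probe sets of Tpi1 and 0.38 to 0.98 on those of Aldoa, while Pkm and Pgk1 were not called. Ldha, at 0.42, was not called without replicate 3 of WC with empty vector (0.37, adjusted p = 0.0856). Of 13 genes of glycogen and the pentose phosphate pathway, 3 were called higher, all of glycogen metabolism: the synthase gene Gys1 (1.13), the branching enzyme gene Gbe1 (1.21) and the phosphoglucomutase gene Pgm1 (1.25, and 0.22 on another probe set).

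The core of the hypoxia response element, ACGTG on either strand, stood within 250 bases before the start in 24.4% of the tested genes with a window. It stood in 16 of the 23 hypoxia list genes with a window (69.6%), in 11 of the 20 of glycolysis (55.0%), in 28.3% of all genes called higher and in 24.0% of those called lower. Both list shares cover members called and not called, and Slc2a1 is in both. The lists are of textbook genes, so their shares do not describe the response to v-src. Among the 20 largest rises, 2 of 15 genes with a window held the core (13.3%), Bnip3 and Slc16a3. Among the 20 largest falls, 4 of 16 held it (25%). A difference in share was not tested. The stretches of 3 genes that rose are shown, with the core in capitals. In Bnip3 the capitals are a palindrome, which matched on both strands and began 108 bases before the start. The first match began 27 bases before the start of Slc16a3 and 36 before that of Slc2a1.
Slc16a3, chr11:120948897-120949066, plus strand: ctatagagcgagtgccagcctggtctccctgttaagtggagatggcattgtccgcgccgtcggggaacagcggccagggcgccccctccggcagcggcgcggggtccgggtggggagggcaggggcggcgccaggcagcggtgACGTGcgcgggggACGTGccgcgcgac
Slc2a1, chr4:119108575-119108744, plus strand: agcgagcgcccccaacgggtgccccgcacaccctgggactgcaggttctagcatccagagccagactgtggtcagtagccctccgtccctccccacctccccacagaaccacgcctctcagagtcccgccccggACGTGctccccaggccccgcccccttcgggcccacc
Bnip3, chr7:138909507-138909676, minus strand: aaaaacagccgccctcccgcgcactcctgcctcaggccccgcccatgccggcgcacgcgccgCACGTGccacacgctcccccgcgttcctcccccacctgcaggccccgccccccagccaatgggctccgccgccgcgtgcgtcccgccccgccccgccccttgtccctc

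**Figure D2:**
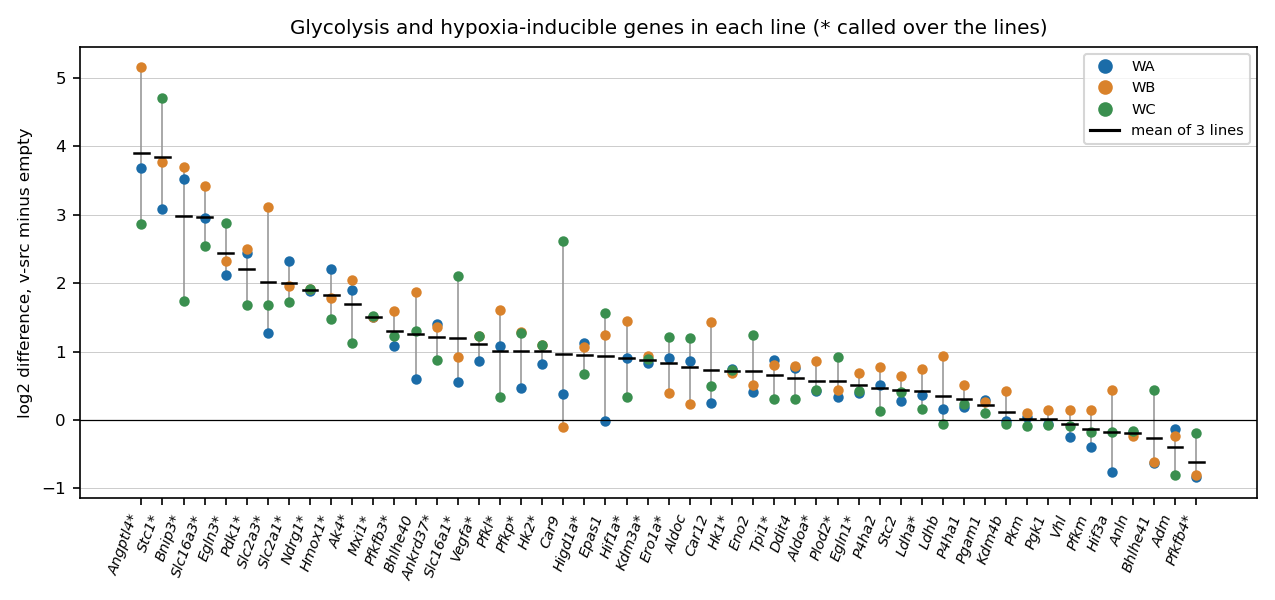
The log2 difference of v-src minus empty vector (vertical) for each tested gene of glycolysis and of the hypoxia list (horizontal), with a point for each line and a bar at the mean of the 3 lines. Stars mark called genes, from Angptl4 at 3.90 down to Pfkfb4 at -0.61.

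Other parts of metabolism moved gene by gene. Upp1, uridine phosphorylase, which splits uridine into uracil and a sugar phosphate, went from 5.33, 13.4 and 53.7 to 1142, 2470 and 3360. All v-src arrays were high in each line, and it rose by 5.62 (SE 0.28, limma adjusted p = 0.00022), with 4.05 to 6.39 over other settings. Its empty vector signals too lie around the added 23. Of 18 genes of nucleoside salvage tested, 4 were called higher and 0 lower, the others being the ectonucleotidase gene Nt5e (1.81, SE 0.20), the nucleoside carrier gene Slc29a2 (1.63, SE 0.30) and Pnp (0.41, SE 0.08). The list's median was 0.01, the 4 rises were 2 with the filter at the 60th percentile, and Tk1, Dck, Adk and Hprt were not called.

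Amino acid transporters went the other way, with 0 of 21 called higher and 9 lower (median -0.54). Slc1a6, a glutamate carrier known from Purkinje neurons, had 203.5, 287.5 and 1743 with empty vector and 8.48, 14.6 and 61.9 with v-src. Slc7a5, the large neutral amino acid carrier LAT1, had 3914, 5899 and 7659 and then 1630, 2021 and 2828. In both genes all v-src arrays were lower, and the falls were 3.55 (SE 0.48) and 1.52 (SE 0.15, limma adjusted p = 0.00196). Its partner chain gene Slc3a2 fell by 0.78 (SE 0.12), Slc7a1 by 0.76 (SE 0.11), Slc1a4 by 0.85 (SE 0.12) and the glutamate carrier gene Slc1a3 by 1.53 (SE 0.22). Slc1a5 (-0.34), Slc7a11 (-0.53) and Slc38a2 (-0.08) were not called. Of 15 genes of metallothioneins, iron and copper, 7 were called higher and 1 lower (median 0.98). The metal-binding proteins' genes Mt1 (1405, 1938 and 2928 with empty vector, 6900, 11130 and 12860 with v-src) and Mt2 were higher on all v-src arrays. They rose by 2.32 (SE 0.23) and 2.09 (SE 0.18), the transferrin receptor gene Tfrc rose by 0.98 (SE 0.09, and 1.74 and 1.62 on other probe sets), and the metal reductase genes Steap1 and Steap2 rose by 1.14 (SE 0.19) and 1.05 (SE 0.14). The zinc importer gene Slc39a14 rose by 1.00 (SE 0.14). The zinc exporter gene Slc30a1 fell by 2.21 (SE 0.19) on its kept probe set, while another, with a mean signal of 94.4 and 116, gave 0.31.

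Collagen chains had the lowest median of the lists, -0.97, with 0 of 24 called higher and 16 lower. Col1a1, the main chain of type I collagen, had 15980, 18950 and 27870 with empty vector and 5097, 9942 and 14540 with v-src. All v-src arrays were lower, and it fell by 1.15 (SE 0.21, limma adjusted p = 0.0114), and its other probe set read -1.31. Its partner chain gene Col1a2 fell by 0.41 (SE 0.05) on its brightest probe set, while the other 2 read -1.43 and -1.79. Of the fibril-nucleating chains, Col5a1 fell by 1.74 (SE 0.17), Col5a2 by 1.46 (SE 0.16, and -2.57 on another probe set) and Col11a1 by 2.56 (SE 0.31). The chains of basement membranes Col4a1 and Col4a2, which share a promoter, fell by 1.12 (SE 0.14) and 1.24 (SE 0.14). Col2a1, the cartilage collagen, had 208.8, 341.1 and 2430 with empty vector, with WC highest, and 26.9, 41.5 and 81.0 with v-src, and fell by 3.16 (SE 0.55). Col14a1 (-0.25), Col6a3 (-0.49) and Col18a1 (0.64) were not called. Col3a1 was called at -0.49 (-1.24 on another probe set) but not without replicate 1 of WC with empty vector (-0.44, adjusted p = 0.0585).

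Of 20 genes that process and crosslink collagen, 1 was called higher and 9 lower (median -0.38). P4ha3, a collagen prolyl hydroxylase, had 473.9, 629.0 and 733.0 and then 115.3, 145.4 and 213.4, fell in each line without overlap, and did so by 1.88 (SE 0.15, limma adjusted p = 0.000915). Tll1, a protease of collagen propeptides, fell by 2.97 (SE 0.71, adjusted p = 0.0522 without the intensity trend), the collagen chaperone gene Serpinh1 by 0.53 (SE 0.07) and the crosslinking enzyme gene Loxl1 by 0.82 (SE 0.09). The 1 call in the other direction, Plod2 (0.57), was lost without replicate 2 of WA with empty vector (0.52, adjusted p = 0.0514). P4ha1 (0.31) and P4ha2 (0.47), the other prolyl hydroxylase chains tested, were not called.

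Matricellular and elastic fibre genes had 0 of 26 called higher and 10 lower (median -0.56). Smoc2, a calcium-binding matrix protein, had the largest fall of all genes called. Its signal was 1568, 2542 and 3894 with empty vector and 19.4, 79.1 and 165.2 with v-src, and no array of either group came near the other. It fell by 4.85 (SE 0.61, limma adjusted p = 0.00344), with -3.44 (WA), -6.19 (WB) and -4.91 (WC). Fbln5, which helps to assemble elastic fibres, fell by 2.32 (SE 0.28), the latent TGF-beta binding protein genes Ltbp2 by 2.53 (SE 0.41) and Ltbp3 by 1.59 (SE 0.12), and Postn by 2.61 (SE 0.44). Sparc, a collagen-binding protein, fell by 0.97 (SE 0.11), with -0.90 and 0.08 on other probe sets.

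Among the small proteoglycans, falls and a rise were both called. On chromosome 13, Omd, Ogn and Aspn lie side by side in RefSeq order and fell by 2.19 (SE 0.24), 3.01 (SE 0.45) and 3.98 (SE 0.29, limma adjusted p = 0.000793). Aspn, asporin, a binder of TGF-beta and collagen, had 3297, 5061 and 10770 with empty vector and 145.1, 287.4 and 1109 with v-src, without overlap. Their neighbour Ecm2 (-0.18) was not called. On chromosome 10, Dcn, decorin, rose by 3.34 (SE 0.77, limma adjusted p = 0.0279), with 3.33, 0.91 and 5.78 in WA, WB and WC. The WB empty vector arrays already had 7866 to 10260, against 179.0 to 598.1 in the other lines, and the v-src arrays had 3836, 15970 and 17080, so the groups overlapped. Lum, lumican, next to Dcn, differed by 0.23 (WA), -0.06 (WB) and 4.01 (WC) and was not called (1.40, SE 0.73), and Kera was below the filter. These neighbours too were looked up after their values were seen. Over all 20 proteoglycans tested, 3 were called higher and 8 lower (median -0.30).

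**Figure D3:**
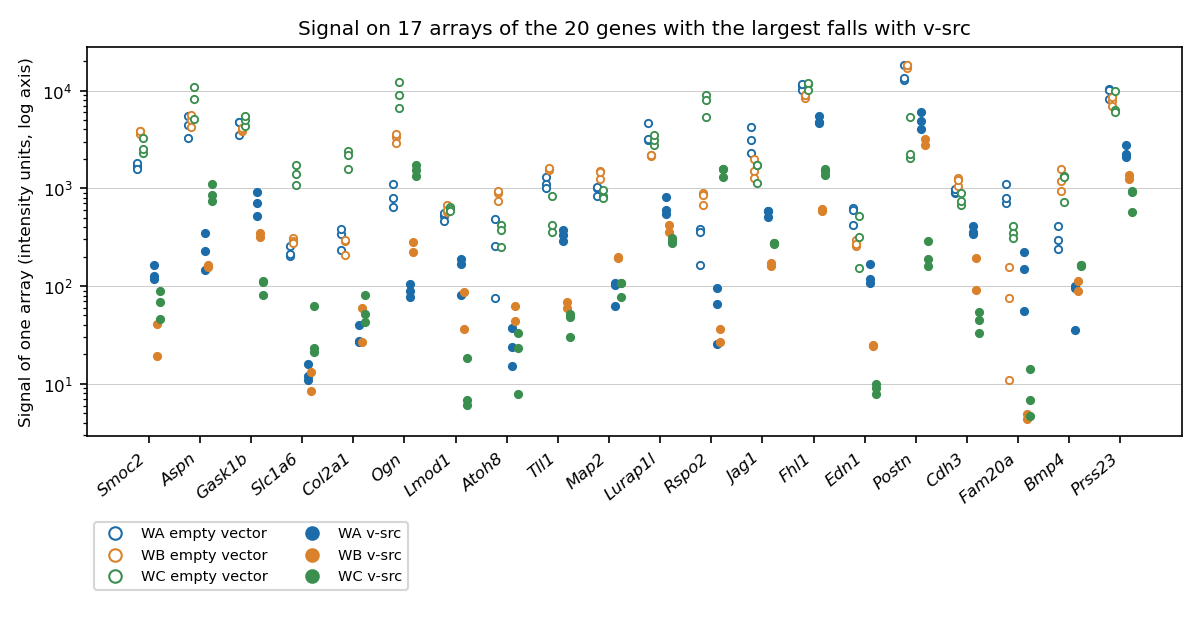
Signal in intensity units on a log axis (vertical) of the 20 genes with the largest falls (horizontal), one point per array, open for empty vector, filled for v-src and coloured by line. Smoc2 at the left falls from 1568 or more to 165.2 or less, and Ogn, Tll1, Rspo2, Edn1, Postn and Fam20a are those whose points overlap.

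Smooth muscle and contractile genes had 0 of 28 called higher and 16 lower (median -0.71, 10 lower without the intensity trend). Lmod1, leiomodin, an actin nucleator, had 468.1, 589.1 and 678.4 with empty vector and 6.14, 58.2 and 188.7 with v-src. Its v-src arrays were all lower, with those of WC at 18.3 or less, and it fell by 3.00 (SE 0.55, limma adjusted p = 0.0128). Fhl1, a LIM protein of muscle, went from 8496, 10240 and 12080 to 591.9, 1535 and 5525, all lower and lowest in WB, and fell by 2.63 (SE 0.55, and -0.53 on another, dimmer probe set). Csrp1 fell by 1.30 (SE 0.20), the tropomyosin genes Tpm1 and Tpm2 by 0.71 (SE 0.08) and 0.84 (SE 0.14), and the non-muscle myosin gene Myh9 by 0.73 (SE 0.09). The calponin gene Cnn1 fell by 2.40 (SE 0.60), with -1.18, -1.42 and -4.59 in WA, WB and WC, and the call was lost without the intensity trend (adjusted p = 0.0585) and when the fit held empty vector and v-src only (adjusted p = 0.0611). Acta2 (-1.10) and Tagln (-1.67), smooth muscle actin and transgelin, were not called. Myl9 was called at -1.69 but not without replicate 3 of WA with empty vector (-1.63, adjusted p = 0.0514). Srf, the serum response factor itself, fell by 0.98 (SE 0.18) on its kept probe set. Another read -0.43, with 0.09 in WA, and the call was lost with the mean of its probe sets (-0.70, adjusted p = 0.0507).

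The CArG box, the element that serum response factor binds, stood within 250 bases before the start in 1.43% of the tested genes with a window and in 6 of 25 contractile genes (24.0%): Cnn2, Myl9, Ldb3, Srf, Fhl1 and Fhl2. Of those, Ldb3 (-0.25) and Fhl2 (-0.55) were not called. This list too is of textbook genes, Srf among them, so its share does not describe the response to v-src. The box stood in 1.46% of all genes called higher and in 2.23% of those called lower, and a difference in share was not tested. The stretch of Fhl1 is shown, 1 of 2 windows of that gene, with the box in capitals 102 bases before the start.
Fhl1, chrX:56779513-56779682, plus strand: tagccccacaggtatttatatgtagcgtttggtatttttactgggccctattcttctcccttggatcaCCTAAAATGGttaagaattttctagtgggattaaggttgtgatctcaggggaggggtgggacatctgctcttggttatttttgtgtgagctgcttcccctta

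Among 26 Src substrates of podosomes, adhesions and caveolae, 4 were called higher and 6 lower (median -0.24). Eps8, an actin-capping substrate of receptor tyrosine kinases, had 543.1, 1086 and 1528 with empty vector and 3027, 3686 and 8016 with v-src. All v-src arrays were higher, and it rose by 2.15 (SE 0.19, limma adjusted p = 0.00131). Sh3pxd2b, the podosome scaffold TKS4, rose by 1.25 (SE 0.21, and 0.29 on another probe set), ezrin (Ezr) by 1.23 (SE 0.27) and paxillin (Pxn) by 0.94 (SE 0.17). Cav1, caveolin 1, the coat protein of caveolae, went from 8334, 13390 and 15390 to 3892, 5442 and 6681, all lower, and fell by 1.16 (SE 0.20). The adhesion linkers Tns1, Vcl and Tln1 fell by 1.22 (SE 0.14), 0.78 (SE 0.13) and 0.69 (SE 0.09). Sh3pxd2a, the related scaffold TKS5, was called at -0.42 on its kept probe set, but another read 0.31 and the mean of its probe sets was -0.06 (adjusted p = 0.78). The call was also lost without replicate 1 of WC with empty vector (-0.38, adjusted p = 0.0532) or with c-myc (-0.42, adjusted p = 0.0641).

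Of 23 integrins and cadherins, 3 were called higher and 8 lower. The median was 0.11 over the lines but -0.21, -0.20 and -0.24 in WA, WB and WC, and 1 was called higher with the filter at the 60th percentile. The collagen receptor chain gene Itga1 fell by 1.25 (SE 0.18) and Itga8 by 1.82 (SE 0.27), the adhesion genes Cdh3 and Itgb5 by 2.59 (SE 0.41) and 0.74 (SE 0.14), while Itgb7 rose by 2.26 (SE 0.36) and Itgb3 by 1.32 (SE 0.26). The Itgb3 call was lost with the mean of its probe sets (1.27, adjusted p = 0.0622), the other of which read -0.33 in WC. Cdh2, N-cadherin, was called at -0.40 but not without replicate 3 of WA (-0.37, adjusted p = 0.0663) or replicate 2 of WB (-0.33, adjusted p = 0.0607) with v-src. Podoplanin (Pdpn), a membrane glycoprotein that binds ezrin, had 686.1, 1820 and 3890 with empty vector and 7427, 10270 and 11860 with v-src, all higher. It rose by 2.53 (SE 0.36). Gap43, a membrane protein of growing axons, rose by 3.51 (SE 0.40), and Cd53, a tetraspanin known from blood cells, by 3.81 (SE 0.29), both without overlap. Mcpt8, a mast cell and basophil protease, rose from 11.8, 39.9 and 178.2 to 1581, 1792 and 2239, by 4.49 (SE 0.41). Map2, a microtubule protein of neurons, fell by 2.91 (SE 0.19), with all v-src arrays lower, and other probe sets read -1.35 to -1.46.

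Feedback genes of the MAP kinase pathway had 4 of 24 called higher and 1 lower (median 0.56). The Ras inhibitors of the Spred family rose together, Spred1 by 1.23 (SE 0.18), Spred2 by 0.73 (SE 0.10) and Spred3 by 1.62 (SE 0.17, limma adjusted p = 0.00203), with all v-src arrays higher in each. Spry1, of the related Sprouty family, went from 527.1, 1957 and 5414 to 238.5, 453.4 and 653.5, overlapping in WC, and fell by 1.86 (SE 0.33), while Spry2 (0.65) and Spry4 (1.13) were not called. Dusp6 (2.01) and Dusp5 (1.96), phosphatases of ERK, were not called either, and 8 of the list were called higher when the fit held empty vector and v-src only. Among 20 receptor tyrosine kinases and regulators, Errfi1, an inhibitor of the EGF receptor, rose by 2.87 (SE 0.56), from 1046, 1222 and 1600 to 6552, 9918 and 13210 without overlap. Pdgfrb, a receptor for platelet-derived growth factor, went from 2840, 3596 and 5350 to 742.0, 933.6 and 1385, also apart, and fell by 1.87 (SE 0.21). The collagen receptor kinase gene Ddr2 fell by 0.80 (SE 0.17), and Ddr1 by 1.31 (SE 0.18) on its kept probe set. The other probe sets of Ddr1 disagreed: those with the brightest signals read -1.29 and -1.38, and the rest -0.75, -0.61, -0.28, -0.01 and 0.13. Fosl1, an AP-1 subunit known as FRA1, rose by 1.73 (SE 0.35), from 1330, 1710 and 2730 to 4864, 6061 and 7144. Fos (0.22), Jun (0.62), Junb (1.63) and Egr1 (0.15) were not called, and of 26 AP-1 and immediate early genes 3 were called higher and 3 lower, among the latter Klf4 (-1.57, SE 0.20). With empty vector and v-src only in the fit, 9 were called higher.

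BMP, TGF-beta and Id genes had 3 of 27 called higher and 8 lower (median -0.57). The ligand gene Bmp4 had 238.9, 938.7 and 1587 with empty vector and 35.7, 106.5 and 166.2 with v-src. Smad6, an inhibitor induced by BMP signals, had 731.7, 2255 and 2658 and then 171.1, 262.1 and 505.9. In both all v-src arrays were lower, and they fell by 2.57 (SE 0.45) and 2.48 (SE 0.19, limma adjusted p = 0.000886). The BMP target genes Id3 and Atoh8 fell by 1.38 (SE 0.13) and 2.98 (SE 0.25), and the ligand genes Tgfb2 and Tgfb3 by 2.22 (SE 0.29) and 1.93 (SE 0.35). Grem1, a secreted BMP antagonist, rose by 1.63 (SE 0.27), and Tgfbr3 by 1.53 (SE 0.24). Of 21 Wnt ligands, antagonists and targets, 2 were called higher and 5 lower. The 2 were 1 without replicate 2 of WC with empty vector, and 0 with the filter at the 60th percentile. Rspo2, an amplifier of Wnt signals, fell by 2.72 (SE 0.38, and -0.83 on another probe set), Sfrp2 by 1.48 (SE 0.33), and Fzd2 and Fzd7 by 0.81 (SE 0.13) and 0.78 (SE 0.11). Jag1, a Notch ligand, fell by 2.63 (SE 0.42), and its other 2 probe sets gave -0.43 and -1.71. Edn1, the peptide endothelin 1, fell by 2.62 (SE 0.47).

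**Figure D4:**
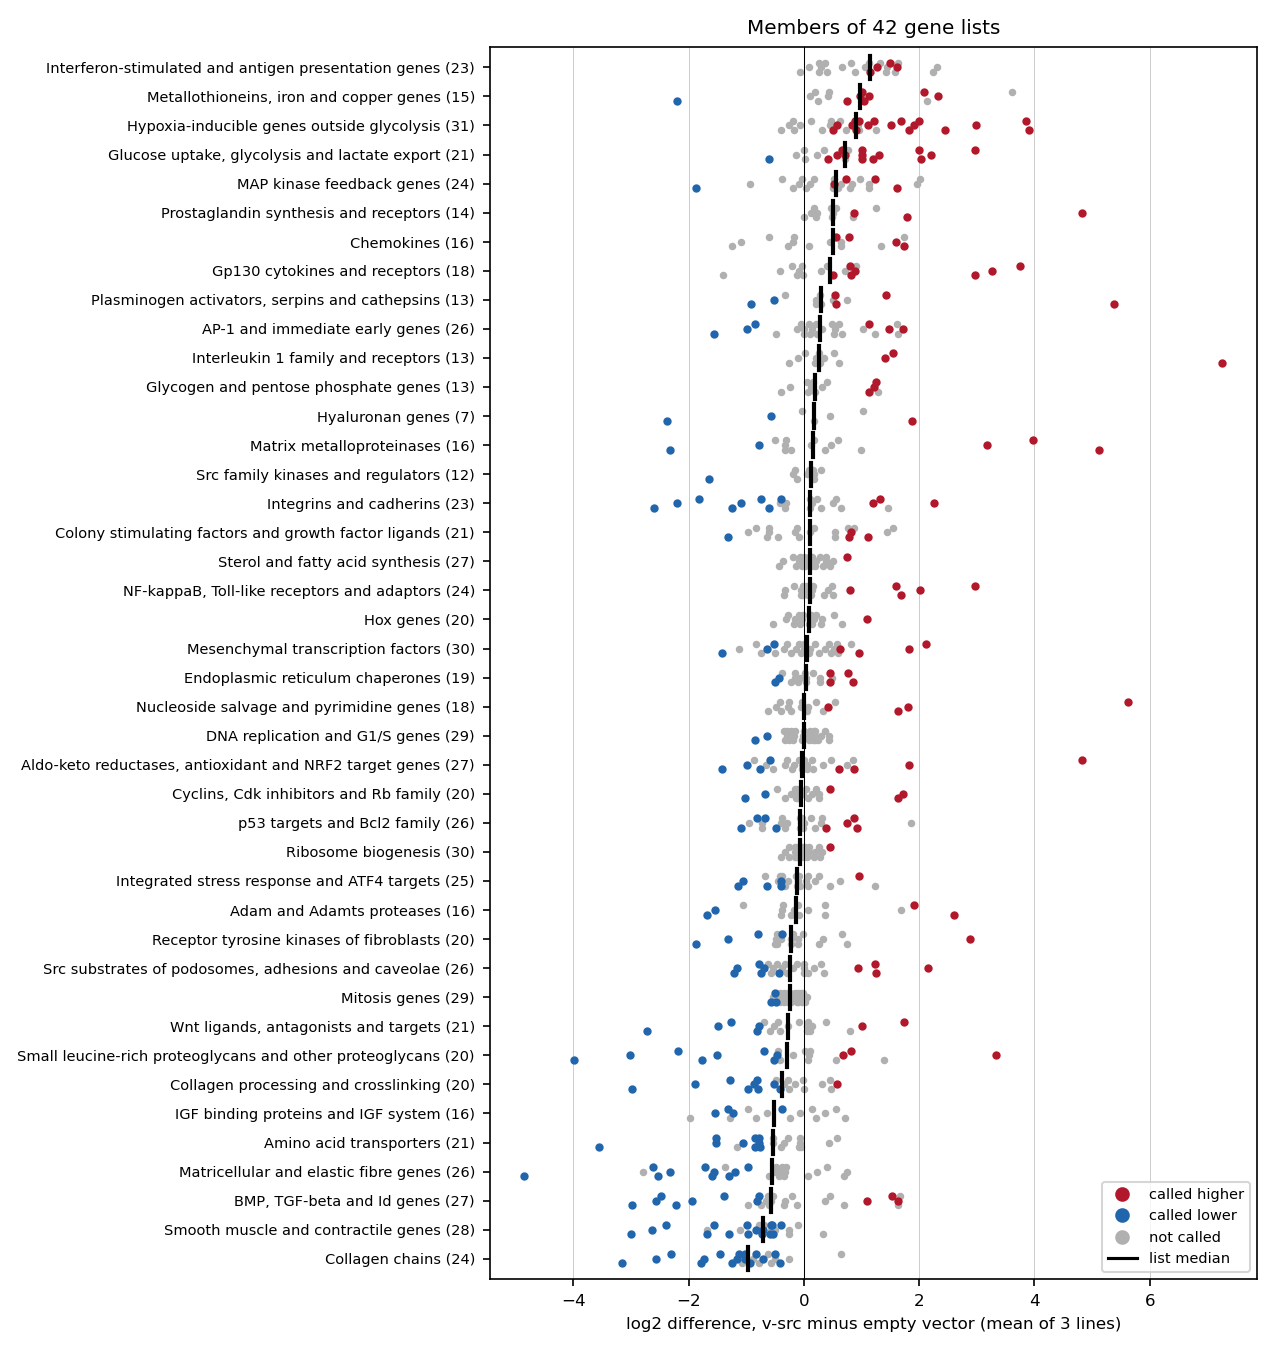
Log2 differences of v-src minus empty vector (horizontal) of the tested members of 42 gene lists (vertical, number tested in parentheses), sorted by list median (black bar). Medians run from -0.97 for collagen chains to 1.14 for interferon-stimulated genes, and each coloured point is a called gene.

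Of 29 genes of DNA replication and G1/S, 0 were called higher and 2 lower (median 0.01), Rrm1 by -0.65 (SE 0.10) and Pole, whose call was lost without replicate 3 of WA with empty vector (-0.79, adjusted p = 0.0536) or with v-src (-0.79, adjusted p = 0.0516). Of 29 mitosis genes, 0 were called higher and 3 lower (median -0.24). The cyclin gene Ccnd2 fell by 1.01 (SE 0.12), and Cdkn1a, the Cdk inhibitor p21, rose by 1.72 (SE 0.41), with 2.42 (WA), 2.24 (WB) and 0.49 (WC), and had an adjusted p of 0.0503 without the intensity trend. Mdm2, the ubiquitin ligase of p53, rose by 0.86 (SE 0.17), Phlda3, another p53 target, fell by 1.09 (SE 0.19), and Myc (0.09), Cdkn2a (0.07) and Csk (0.05) were not called. Ribosome biogenesis had 1 of 30 called higher and 0 lower (median -0.06), and the 1 call, Nhp2 (0.45), was lost without replicate 1 of WC with c-myc (0.45, adjusted p = 0.0505). Of 20 Hox genes, 1 was called higher, Hoxa5 (1.09 on its kept probe set, 0.10 on another), and the call was lost with the mean of them (0.59, adjusted p = 0.0826).

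The lines were compared by a limma F test over the 26 arrays, which asked whether the effect of v-src differed between lines relative to the spread between arrays. It was called for 1752 genes (13.5%), and 340 of these were among the 1749 called over the lines (19.4%). The transporter gene Slc16a1, MCT1, was higher with v-src by 0.56, 0.93 and 2.11 in WA, WB and WC (F test adjusted p = 3.46e-08). Gask1b, a Golgi kinase-like gene, was lower by -2.59, -3.49 and -5.33 in the same order, and Fhl1 by -1.15, -3.82 and -2.92. Gja1, connexin 43, a gap junction protein, had 734.7 to 997.3 with empty vector in WB and 2680 to 8988 in the other lines. With v-src it had 5319 to 9913 in all, and it was higher by 1.09, 2.59 and 0.36, with the call over the lines lost without replicate 1 of WC with empty vector (1.29, adjusted p = 0.0564).

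The other 1412 genes called by the F test were not called over the lines. Lcn2, lipocalin 2, a siderophore-binding protein, had 5.19, 36.1 and 73.2 with empty vector. With v-src it stayed at 27.2 to 48.4 in WA, and reached 8009 and 9911 in WB and 468.1 to 579.9 in WC, a difference of 0.75, 7.22 and 2.86. Sod3, the extracellular superoxide dismutase, had 2069 to 3108 with empty vector in WC and 29.2 or less in WA and WB. With v-src it had 488.5 and 548.6 in WB and 846.5 to 1310 in WC, so it was higher in WB (3.80) and lower in WC (-1.15). Cd24a, a surface glycoprotein, differed by 2.85, 2.22 and -0.23, and its empty vector arrays of WC (8985 or more) were above those of the other lines. Cdc42ep3, a Cdc42 effector, was lower on all v-src arrays, by -0.83, -0.21 and -3.03.

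**Figure D5:**
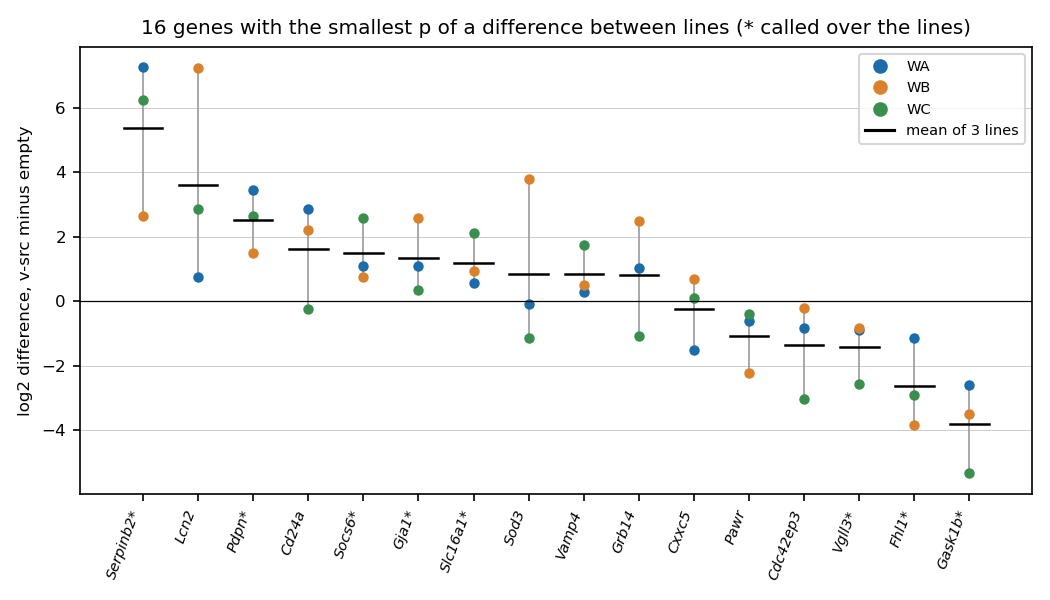
The log2 difference of v-src minus empty vector (vertical) in each line for the 16 genes with the smallest p of the F test between lines (horizontal), 8 called over the lines (starred) and 8 not. Points are lines and bars the mean of 3 lines, and Lcn2 spans 0.75 in WA to 7.22 in WB.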

How the data were processed

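Total RNA was measured on Affymetrix expression arrays, and per the labels the groups were set by parental line and vector. The authors deposited 1 table of linear intensity values for 45101 probe sets on 26 arrays. The submitters' processing notes name MAS5 as the tool; its version and any detection calls are not given in the sources used here. A trimmed mean, without the lowest and highest 2% of probe sets, was 500 on every array, and array medians lay between 88.95 and 134.6. A low signal does not show that a gene was absent, and the number of arrays limits the precision. All columns were matched to labelled samples (0 left over).

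The platform annotation gave 1 gene to 34958 probe sets, several to 932 and none to 9211, and the last 2 kinds were not named. RefSeq held the gene IDs of 34754, 0 symbols changed, and the 64 control probe sets were left out. From the deposited intensity, log2(value + 23) was taken, 23 being the 20th percentile of all values, so folds of dim genes are understated. A probe set was kept when its mean over all 26 arrays, those of v-src and c-myc included, was above the 40th percentile. Of each gene the brightest was then taken, which left 13018 of 18193 genes. A gene dim with empty vector could thus enter the test through arrays where it was high. Whether leading rises such as Upp1, Mmp13 and Akr1c18 did so was not tested. The arrays of a line with a vector were averaged first, and the 9 averages were fitted with line and vector as terms in limma 3.58.1 (R 4.3.3, 4 residual and 3.9 prior degrees of freedom) with an intensity trend and a threshold of 0.05 after Benjamini-Hochberg adjustment over all genes. An SE is limma's, pooled over the 3 vectors. The F test between lines used 9 group means over the 26 arrays, with 17 residual degrees of freedom and 6.2 from the prior. The scripts were tested on simulated data.

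The 50 gene lists, by textbook family, are described by counts and medians with no test, and 75 members had no named probe set and were not analysed here. Members and lists were chosen with earlier results of these data known. Named genes are the 20 largest rises and 20 largest falls, the called members of each list, or the 3 largest differences where fewer than 2 were called, the 8 smallest p of the F test among called and among other genes, and Src, Yes1, Fyn, Csk, Myc, Cdkn1a, Cdkn2a and Mdm2 as checks. Members that were not called, neighbours on a chromosome and other probe sets were named after their values were seen. Promoter sequences came from RefSeq tables of assembly GRCm38.p6, which was used for names, chromosomes and gene order. Arrays with the same number deviated together with r between -0.139 and 0.212, so the numbers were not taken as pairs. The alternatives were other pseudocounts, filters, probe set rules and normalization, no trend, other fits, a replicate block, and leaving out each array or line.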

Additional observations from a re-analysis of the deposited data

Results flagged for a closer look

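The effect of v-src differed between lines for 1752 genes by the limma F test, and the genes below are those among the largest rises and falls, the chosen checks and the smallest p of that test for which it was called. Of genes called higher over the lines, the adjusted p of this test was 0.000687 for Akr1c18, 0.0189 for Angptl4, 0.00017 for Bnip3, 0.0296 for Cd53, 0.000531 for Cdkn1a, 7.06e-06 for Dcn, 4.41e-08 for Gja1 and 3.31e-05 for Il6. It was 0.0195 for Mcpt8, 0.000121 for Mmp10, 1.58e-05 for Mmp13, 5.93e-05 for Mmp3, 4.41e-08 for Pdpn, 5.77e-09 for Serpinb2, 3.46e-08 for Slc16a1 and 0.00436 for Socs3. It was 1.41e-08 for Socs6, 0.00316 for Sprr2h, 0.00403 for Stc1 and 0.000177 for Tcim. For genes called lower over the lines the adjusted p was 1.69e-06 for Cdh3, 0.00137 for Col2a1, 4.11e-10 for Fhl1, 4.65e-08 for Gask1b, 0.0159 for Lmod1, 0.00652 for Lurap1l, 0.000567 for Postn and 0.00522 for Prss23. It was 0.0453 for Rspo2, 0.0213 for Slc1a6, 0.000148 for Smoc2, 0.000219 for Tll1 and 1.1e-07 for Vgll3. Among genes not called over the lines, the test gave 6.4e-09 for Cd24a, 1.97e-09 for Cdc42ep3, 0.0417 for Cdkn2a, 5.77e-09 for Cxxc5, 0.00238 for Fyn, 5.77e-09 for Grb14, 5.77e-09 for Lcn2, 5.77e-09 for Pawr, 5.77e-09 for Sod3, 0.00415 for Src and 6.33e-09 for Vamp4. Fyn, a Src family kinase, differed by -0.67, 0.01 and 0.21 in WA, WB and WC, and Src by 0.81, 0.03 and 0.07. The spread in this test is that between arrays, which may be technical.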

How the results depend on the processing

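The 865 rises and 884 falls became 2388 and 2565 with all arrays as separate values, 1556 and 1765 with line and vector group as a random block (consensus correlation 0.29), and 2082 and 2227 with a replicate block over 16 arrays. They became 382 and 374 without line WA, 255 and 262 without WB, and 287 and 275 without WC, where fewer averages were fitted. Without each array in turn, rises lay between 760 and 894, falls between 768 and 927, and genes differing between lines between 1215 and 2064. Other pseudocounts (6 or 117), filters, quantile normalization, the mean of a gene's probe sets, no trend and empty vector with v-src alone moved these counts by 1.5 times or less, as did leaving out WA empty replicate 3 with WC c-myc replicate 1, chosen after seeing the data (681 and 755). Quantile normalization kept 1609 of the 1749 calls and no trend 1341. Of 282 named genes called, 195 kept the call in every setting with all 3 lines in which they were tested. Some of the 195, among them Upp1, Mmp13 and Akr1c18, were not tested with the filter at the 60th percentile. Il6 and Fam20a, also of the 195, were tested neither with that filter nor with a pseudocount of 6. A call was lost without some single array for 48 and with no trend for 59, and none changed sign while called. The cause was not tested.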

Other observations

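Further gene lists, not described above, moved in part, and their counts stand against 6.64% of all genes tested called higher and 6.79% called lower (limma with Benjamini-Hochberg adjustment, n = 3 lines). Of 30 mesenchymal transcription factors tested, 4 were called higher and 3 lower (median 0.05). Cebpd and Cebpb, factors of the acute phase and of fat cell differentiation, rose by 2.11 (SE 0.36) and 0.96 (SE 0.18), and the forkhead factor Foxf2 by 1.82 (SE 0.21), each with all v-src arrays above all empty vector arrays. A second probe set of Cebpd, left out of the test, read 1.25. The homeobox factor Prrx2 fell by 1.42 (SE 0.29) and the forkhead factor Foxc1 by 0.64 (SE 0.12), both with overlapping arrays. Of 21 colony stimulating factors and growth factor ligands, 3 were called higher and 1 lower (median 0.11). Vegfb, a relative of the vessel growth factor Vegfa, rose by 0.81 (SE 0.13), and Nrg1, a ligand of the ErbB receptors, fell by 1.31 (SE 0.22). Of 16 genes of the IGF system, 0 were called higher and 4 lower (median -0.51), and the 4 were 2 without replicate 1 of WC with empty vector and 1 without an intensity trend. Igfbp7, which codes for a secreted binding protein, fell by 1.31 (SE 0.33), and without the trend the same difference had an adjusted p of 0.0621, and with quantile normalization it was -1.21 (adjusted p = 0.0556). Of 7 hyaluronan genes, 1 was called higher and 2 lower (median 0.18). Cemip, which codes for a protein needed to break down hyaluronan, fell by 2.37 (SE 0.46) with no overlap, while other probe sets of the gene read -0.62 and 0.37. The synthase gene Has1 rose by 1.87 (SE 0.38), a call lost without replicate 2 of WA with empty vector (1.70, adjusted p = 0.0501).

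Of 25 genes of the integrated stress response, 1 was called higher and 5 lower (median -0.12), and the 5 were 2 without an intensity trend and 3 with the mean of a gene's probe sets. The transcription factor gene Atf5 fell by 1.14 (SE 0.20) with no overlap. Of 19 chaperones of the endoplasmic reticulum, 4 were called higher and 2 lower (median 0.03), and the 4 were 2 without replicate 3 of WC with empty vector or without replicate 2 of WB with c-myc, 2 with no filter on dim probe sets and 1 without the intensity trend. The 2 falls were 0 with the mean of a gene's probe sets. Of 27 genes of sterol and fatty acid synthesis, 1 was called higher, Fdft1 (0.75, SE 0.16), the squalene synthase, and 0 lower (median 0.11). At an unadjusted p under 0.05, 5 of the 27 passed. Of 27 aldo-keto reductase and antioxidant genes, 4 were called higher and 4 lower (median -0.03). Akr1b8, an aldo-keto reductase, rose by 0.88 (SE 0.11), and Me1, the malic enzyme of the cytosol, fell by 0.76 (SE 0.10), both with no overlap. Of 26 p53 targets and Bcl2 family genes, 4 were called higher and 4 lower (median -0.06), and the 4 higher were 2 without replicate 3 of WA with empty vector or without the intensity trend. Bcl2l11, which codes for the cell death protein Bim, rose by 0.92 (SE 0.10) with no overlap. Of 20 cyclins, Cdk inhibitors and Rb family genes, 3 were called higher and 2 lower (median -0.05), and these were 1 higher without the intensity trend and 1 lower with the mean of a gene's probe sets.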
